A study of Homo sapiens with 12 samples.

Results

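The genes described here lie on the long arm of chromosome 1. They were the 497 genes with a start at or beyond 145 Mb on GRCh37, a mean TPM of at least 5 over the 12 libraries and a name without a dot, out of 63677 gene identifiers in the tables and 17621 genes tested. TPM is a level per transcript length, scaled so that each library sums to 1000000. Gene positions are those of the deposited tables, on chromosome 1 of GRCh37. Names with 6 starts (HIST, LAM, SEMA, EFNA, ADAMTS and RPS) and 18 single names were left out, which removed 27 genes above the TPM threshold. The region was chosen by measured values, namely the higher TPM of its genes in NOTCH1KO than in WT, so every NOTCH1KO against WT value below is a description and carries no test. Of 2512 identifiers from 145 Mb onwards, 896 had a dotted name and 1092 undotted ones had a mean TPM under 5. By gene type, 427 members were protein coding, 42 were pseudogenes and 28 had another type or were not matched. SCYL3 lay just inside the level threshold with a mean TPM of 5.04, and CTSK lay just outside it at 4.96. Their NOTCH1KO minus WT differences in log2(TPM + 1) were 0.29 and 0.25. SEC22B, from 145096220, was the first member by position with a difference of -0.15, and PDE4DIP, from 144836157, was the last gene before the threshold with -0.16.

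DAOY is an established human medulloblastoma cell line, and all groups here were DAOY cells. Genotypes were WT, NOTCH1KO and NOTCH2KO, the knockouts made by CRISPR/Cas9 targeting according to the study's methods. Cells of each genotype were grown on plates with the Notch ligand Jagged1 or with the control fragment Fc, and given DMSO or, for 12 h, DAPT, an inhibitor of the γ-secretase that releases the active part of Notch receptors. Each of the 12 combinations had 1 library, so each genotype had 4 libraries over the same 4 cultures, and there was 1 knockout line per gene. The sources used here do not give whether a line came from 1 clone, and the knockout cannot be told apart from anything else in which a line differed from WT. In bulk RNA, fewer cells of a type and less RNA per cell also cannot be told apart. Cultures are written as plate/drug, and values by library are given for Fc/DMSO, Fc/DAPT, Jagged1/DMSO and then Jagged1/DAPT.

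Extra copies of the long arm of chromosome 1 are among the recurrent chromosome changes of human tumours, and tumour cell lines may gain or lose chromosome arms in culture. Genes on a gained arm are often transcribed at a modestly higher level together, whatever their function, and genes named in studies of such gains include MCL1, CKS1B, MDM4 and ILF2. Notch receptors signal through the DNA-binding protein RBPJ, also called CSL, which recognises a short core in the promoters of its targets. DNA copy number was not tested in these data.

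Libraries held 18.3 to 22.4 M (1000000) reads, and 17064 to 17790 genes reached a TPM of 1. NOTCH1 was at 2.78 to 3.57 TPM in WT, 0.278 to 0.874 in NOTCH1KO and 3.36 to 4.38 in NOTCH2KO. NOTCH2 was at 74.9 to 94.9 TPM in WT, 87.2 to 111 in NOTCH1KO and 41.6 to 60.5 in NOTCH2KO, so its RNA was lower in the line that targeted it but far from 0. Of 9 markers of medulloblastoma and cerebellar precursors, 5 reached 1 TPM, and ATOH1, BARHL1, NEUROD1 and EOMES were under 1 in every library. The summed TPM of that list was 27.2 to 35.8 in WT, 20.03 to 31.3 in NOTCH1KO and 35.4 to 44.6 in NOTCH2KO. Fibroblast markers were present (4 of 4), with sums of 753 to 1221 in WT, 679 to 1337 in NOTCH1KO and 689.8 to 982 in NOTCH2KO, while blood and endothelial markers summed to at most 0.514. Of 4 epithelial markers, KRT8 and KRT18 were present and EPCAM and CDH1 were under 1 in every library, and the list summed to 759 to 1029 in WT, 586 to 757 in NOTCH1KO and 684 to 808 in NOTCH2KO, so that it was lower in every NOTCH1KO library than in any WT library. The part of these markers in the results was not tested.

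Promoter sequences are shown for 4 members, on GRCh38.p14, from the RefSeq promoter table. SERTAD4 and TRIM58 are shown because they had large values in NOTCH1KO, and SSR2 and ELF3 because both hold the RBPJ core while one was higher and the other lower in NOTCH1KO. Each run is the 250 bases before the gene's first listed start, 5′ to 3′ in the gene's orientation, and capitals mark the core TGGGAA or its reverse complement TTCCCA. The windows are chr1:210232546-210232795 on the plus strand for SERTAD4, chr1:247856937-247857186 on the plus strand for TRIM58, chr1:156020952-156021201 on the minus strand for SSR2 and chr1:202010337-202010586 on the plus strand for ELF3.
SERTAD4: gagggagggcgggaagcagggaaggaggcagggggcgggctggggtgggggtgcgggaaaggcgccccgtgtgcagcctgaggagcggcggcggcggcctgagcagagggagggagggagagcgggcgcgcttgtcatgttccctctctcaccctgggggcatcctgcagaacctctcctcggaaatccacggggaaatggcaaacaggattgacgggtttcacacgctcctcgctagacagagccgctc
TRIM58: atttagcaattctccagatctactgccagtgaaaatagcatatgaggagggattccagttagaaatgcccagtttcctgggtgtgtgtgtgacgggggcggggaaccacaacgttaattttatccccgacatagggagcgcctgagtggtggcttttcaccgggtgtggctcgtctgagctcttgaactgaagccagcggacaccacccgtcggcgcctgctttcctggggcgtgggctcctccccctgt
SSR2: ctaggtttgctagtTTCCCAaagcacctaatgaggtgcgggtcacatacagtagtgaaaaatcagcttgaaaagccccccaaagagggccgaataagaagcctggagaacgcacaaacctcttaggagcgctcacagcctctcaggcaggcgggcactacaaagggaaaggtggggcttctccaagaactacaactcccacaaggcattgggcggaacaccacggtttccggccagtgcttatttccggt
ELF3: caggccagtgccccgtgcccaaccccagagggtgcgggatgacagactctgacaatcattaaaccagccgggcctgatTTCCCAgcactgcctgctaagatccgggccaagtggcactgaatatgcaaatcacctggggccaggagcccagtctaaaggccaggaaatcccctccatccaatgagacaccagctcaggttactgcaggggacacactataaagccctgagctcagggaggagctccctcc

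No core was found in the SERTAD4 and TRIM58 windows, while SSR2 held 1 that began 236 bases before its start and ELF3 held 1 that began 172 bases before its start. The table had no entry for 132 members, and of the others 68 (18.6%) held the core in these 250 bases on either strand. The share was 19.5% for 7367 genes off chromosome 1 with the same level and name filters and 20.8% for all 35116 promoters of the table. Members with the core had a median log2 difference of 0.25 in NOTCH1KO and 0.33 in NOTCH2KO, and the 297 without it had 0.28 and 0.29. A match of these letters describes the sequence only, and binding was not measured. The GC content of the windows had a median of 62.8% in the members and 65.2% off chromosome 1.

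Across the arm, the members took a larger share of each knockout library than of any WT library. They summed to 3.55, 3.59, 3.58 and 3.63% of all TPM in WT, with a mean of 3.59% ± 0.034 (SD, n = 4). In NOTCH1KO the shares were 4.11, 4.22, 4.21 and 4.12%, with a mean of 4.16% ± 0.058 (SD, n = 4), which was 1.16 times the WT mean. In NOTCH2KO they were 4.13, 4.16, 4.21 and 4.24%, with a mean of 4.19% ± 0.048 (SD, n = 4) and 1.17 times the WT mean. All 8 knockout libraries lay above the 4 WT libraries, and the 2 knockouts overlapped. By this share, the label of the region as raised in NOTCH1KO describes NOTCH2KO about as well. That likeness depended on the scaling. With libraries centred on the median gene off chromosome 1, the members' median log2 difference from WT was 0.31 in NOTCH1KO and 0.18 in NOTCH2KO.

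**Figure D1:**
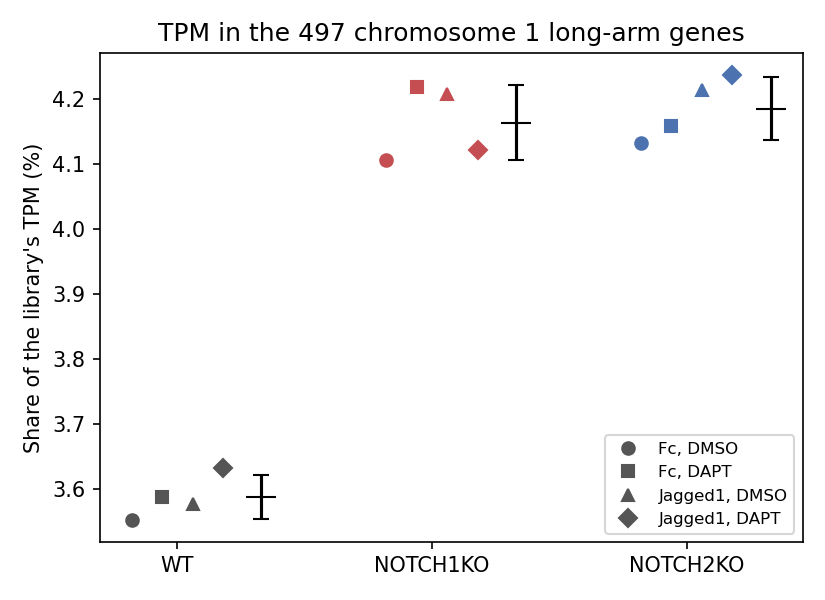
Share of each library's TPM (%) held by the 497 members, by genotype, with a symbol per culture and, at the right of each group, the mean and SD of 4 libraries. The WT libraries sit between 3.55 and 3.63%, and the 8 knockout libraries between 4.11 and 4.24%; the axis does not start at 0.

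Gene by gene, the NOTCH1KO minus WT values that chose the region were spread over many members, which is a description only. The median difference in log2(TPM + 1) between NOTCH1KO and WT was 0.25 over the members, a 1.19-fold difference, with quartiles of 0.032 and 0.45. The corresponding value was -0.0072 for the 10576 genes off chromosome 1 that met the same level and name filters, 8.8e-05 for all genes tested and -0.09 for the 665 such genes of chromosome 1 before 145 Mb. Of the 497 members, 385 (77.5%) were above 0, 229 (46.1%) were higher in all 4 cultures and 42 were lower in all 4. The median stood at 0.31, 0.37, 0.21 and 0.20 in the 4 cultures. In the limma fit over all genes, 168 members (33.8%) were called higher and 23 (4.63%) lower, beside 10.7% and 12.8% of all genes tested, and nothing is read from these shares because this contrast chose the region. The count of higher calls was 111 without WT Fc/DMSO, 106 without WT Fc/DAPT and 108 without NOTCH1KO Fc/DMSO. The count of lower calls was 13 without WT Fc/DMSO and 15 without WT Fc/DAPT or WT Jagged1/DMSO. In 169 members (34%) every NOTCH1KO library lay above every WT library, and in 24 (4.83%) every one lay below, beside 11.9% and 12.5% of all genes tested.

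Without centring of the libraries, NOTCH2KO gave values of the same size. The choice of the region rested on NOTCH1KO against WT, and NOTCH2KO was tested gene by gene against the same 4 WT libraries. Its libraries also count in the mean TPM threshold, and its results were known when the region was chosen. WT values that were low by chance would raise both differences, so these tests are not independent of the choice. The median difference between NOTCH2KO and WT was 0.27, a 1.21-fold difference, with quartiles of 0.091 and 0.45. It was 0.051 for genes off chromosome 1, 0.064 for all genes tested and 0.0093 for chromosome 1 before 145 Mb. In NOTCH2KO 412 members (82.9%) were above 0, 286 (57.5%) were higher in all 4 cultures and 32 were lower in all 4, and the median was 0.27, 0.28, 0.30 and 0.26 by culture. By limma with Benjamini-Hochberg adjustment over all genes, 144 members (29%) rose and 13 (2.62%) fell, beside 12% and 7.35% of all genes tested and 11.1% and 8.06% of genes off chromosome 1. In 177 members (35.6%) every NOTCH2KO library lay above every WT library, and in 20 (4.02%) every one lay below, beside 15% and 9.78% of all genes tested. The count of rises was lower whichever WT or NOTCH2KO library was left out, and such fits have fewer samples. It was 78, 97, 86 and 94 without the WT library of each culture in turn. Without the NOTCH2KO library of each culture it was 80, 107, 82 and 84. It was 90 when libraries were centred on the median gene off chromosome 1, a scaling that lowered the members' median to 0.18. The count of falls was 8 without NOTCH2KO Fc/DAPT or NOTCH2KO Jagged1/DMSO.

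**Figure D2:**
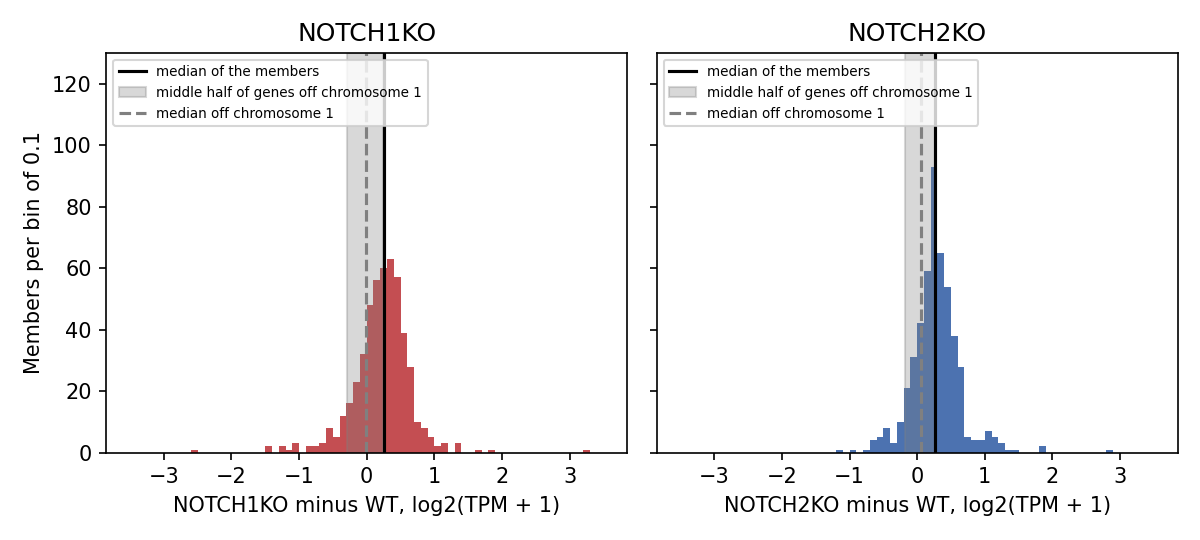
Histograms of the fitted log2(TPM + 1) difference from WT over the 497 members, in bins of 0.1, for NOTCH1KO and NOTCH2KO. The solid line is the members' median (0.25 and 0.27), the dashed line the median of genes off chromosome 1 (-0.0072 and 0.051) and the grey band the quartiles of those genes.

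Along the arm, no 10-Mb window of members had a median at or below 0. In the 11 windows of 10 Mb that hold the members, the median ran from 0.14 to 0.43 in NOTCH1KO and from 0.21 to 0.36 in NOTCH2KO, and all 44 window values taken culture by culture were above 0 in each knockout. Before 145 Mb, 13 windows had at least 10 genes. There the NOTCH1KO medians ran from -0.34 to 0.15, with 16 of 52 culture values above 0, and the NOTCH2KO medians ran from -0.15 to 0.46, with 29 of 52 above 0. The NOTCH2KO values were already high before the threshold, with 0.46 over the 57 genes from 105 to 115 Mb and 0.27 from 115 to 125 Mb, where NOTCH1KO had -0.02 and 0.12. NOTCH2 itself lies in the latter window, from 120454176 to 120612240. None of the 22 other chromosomes, each taken whole, had a median as high as the members in either knockout. The nearest were chromosome 13 at 0.23 in NOTCH1KO and chromosome 20 at 0.22 in NOTCH2KO. On the other side, the lowest were chromosome 9 at -0.62 in NOTCH1KO and chromosome 6 at -0.26 in NOTCH2KO. The chromosome 9 median was further from 0 than that of the members, so shifts of whole chromosomes were not particular to this arm. Single arms of other chromosomes were not compared, and the region was chosen for its high values in NOTCH1KO.

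**Figure D3:**
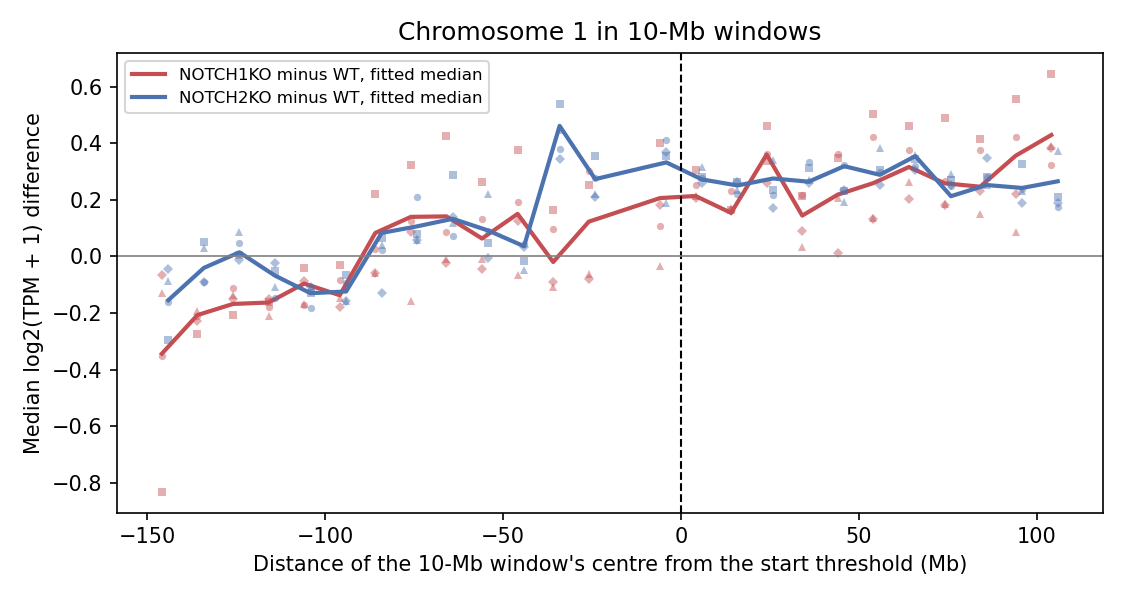
Median log2(TPM + 1) difference from WT in 10-Mb windows of chromosome 1, against the distance (Mb) of the window's centre from the 145-Mb threshold (dashed line). Lines join the fitted medians and faint symbols give the 4 cultures (circle Fc/DMSO, square Fc/DAPT, triangle Jagged1/DMSO, diamond Jagged1/DAPT). To the right of the threshold all symbols of both knockouts are above 0, and NOTCH2KO rises to 0.46 before it.

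Protein-coding members had medians of 0.25 in NOTCH1KO and 0.28 in NOTCH2KO, and the 42 pseudogenes had 0.08 and -0.15. By level, members in the low, middle and high parts of the mean TPM range, 3 parts of equal size, had medians of 0.19, 0.31 and 0.25 in NOTCH1KO and 0.33, 0.30 and 0.21 in NOTCH2KO. By genomic span, the shortest 166 genes had 0.13 and 0.21 and the longest 166 had 0.31 and 0.32. The 27 genes that the name filter left out had -0.0093 and 0.13, and the 63 with dotted names had 0.09 and -0.043, both below the members.

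Between the knockouts the members' median was near 0 without centring of the libraries. The shares of single members called were near or below those of all genes tested. The NOTCH1KO minus NOTCH2KO difference had a median of -0.034 with quartiles of -0.27 and 0.20, and 232 members were above 0. Centring the libraries turned this median to 0.12, and leaving out NOTCH1KO Jagged1/DMSO turned it to 0.013, so it has no stable sign. limma called 61 members (12.3%) higher and 78 (15.7%) lower in NOTCH1KO than in NOTCH2KO, beside 11.9% and 19.8% of all genes tested. After centring these counts were 119 and 47. This comparison shares the NOTCH1KO libraries with the one that chose the region and was added after the values had been seen. Many members named below were picked for a large rise or fall in NOTCH1KO against WT. That choice favours small p-values for them between the knockouts, so those p-values are descriptions only. NOTCH2KO against WT uses the same WT libraries as the comparison that picked them. For members picked that way, its p-values can be favoured too and are also descriptions only.

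For the gene lists below, 12% of all genes tested rose in NOTCH2KO and 7.35% fell, beside 29% and 2.62% of the members. In NOTCH1KO against NOTCH2KO, 11.9% of all genes tested were higher and 19.8% lower, beside 12.3% and 15.7% of the members. Every gene counted in a list is a member, so a share near that of the members sets no list apart. The medians over all genes tested were 8.8e-05 in NOTCH1KO and 0.064 in NOTCH2KO, and those of the members were 0.25 and 0.27.

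The first group is a list of 14 genes that studies of long-arm gains have named, and all 14 were members. It was put together with earlier results of these data known and does not hold every such gene. Its full membership is therefore no result, and its NOTCH1KO values describe the contrast that chose the region. All 14 were above 0 in NOTCH1KO, 9 of them in all 4 cultures, with a median log2 difference of 0.47, beside 0.25 for the members. In NOTCH2KO the median was 0.28 and 7 rose (50%) and none fell, and 4 (28.6%) were higher and none lower in NOTCH1KO than in NOTCH2KO. ILF2 (ENSG00000143621, 153634512 to 153643524), part of a double-stranded RNA-binding complex, had 801, 791, 752 and 724 TPM in WT, with 1118, 1392, 1162 and 1094 in NOTCH1KO and 926, 969, 899 and 904 in NOTCH2KO. The 3 groups did not overlap and NOTCH2KO lay between the others. The log2 difference was 0.63 (SE 0.064) in NOTCH1KO and 0.27 in NOTCH2KO (limma adjusted p = 0.0208), and the knockouts differed by 0.36 (limma adjusted p = 0.00373). The NOTCH2KO call for ILF2 was lost without WT Fc/DAPT (0.23), WT Jagged1/DMSO (0.27), WT Jagged1/DAPT (0.27), NOTCH2KO Fc/DMSO (0.26), NOTCH2KO Jagged1/DMSO (0.27) and NOTCH2KO Jagged1/DAPT (0.25), and with centred libraries (0.18) and no filter on low values (0.27). MCL1, an inhibitor of apoptosis, had 181 ± 24.2, 239 ± 15.2 and 197 ± 35.6 TPM (SD, n = 4) in WT, NOTCH1KO and NOTCH2KO, with log2 differences of 0.40 and 0.11 (limma adjusted p = 0.397 in NOTCH2KO). CKS1B, a subunit of cyclin-dependent kinases, had the smallest NOTCH1KO difference of the group, 0.13 (SE 0.21), next to 0.17 in NOTCH2KO (limma adjusted p = 0.622).

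Mitosis and DNA replication genes were 18 members, and all 18 were above 0 in NOTCH1KO, 13 of them in all 4 cultures, with a median of 0.36. The NOTCH2KO median was 0.28, and 4 rose (22.2%) and none fell. The list also holds genes with other main roles, among them INTS3, TIPRL, RFWD2 and RAB3GAP2. UBE2T, the ubiquitin-conjugating enzyme of the Fanconi anaemia pathway of DNA repair, had 192, 204, 171 and 200 TPM in WT, with 278, 314, 262 and 280.2 in NOTCH1KO and 256, 282, 238 and 251 in NOTCH2KO. Both knockouts lay above WT in every library and overlapped each other. The log2 difference of UBE2T was 0.56 (SE 0.057) in NOTCH1KO and 0.42 in NOTCH2KO (limma adjusted p = 0.00211). NUF2, a kinetochore protein, had 125 ± 3.67, 173 ± 26.3 and 153 ± 8.31 TPM (SD, n = 4), with 0.45 in NOTCH1KO and 0.28 in NOTCH2KO (limma adjusted p = 0.0842). LIN9, a subunit of the complex that drives mitotic genes, had the largest NOTCH1KO value of the list, 0.71 (SE 0.12), and 0.34 in NOTCH2KO (limma adjusted p = 0.0809), or 0.19 with coverage, the mean read depth per base, in place of TPM.

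Ubiquitin and proteasome genes numbered 21 members, of which 20 were above 0 in NOTCH1KO and 14 higher in all 4 cultures, with a median of 0.25. NOTCH2KO had a median of 0.27, and 7 rose (33.3%) and none fell. UFC1, the conjugating enzyme for the ubiquitin-like UFM1, had 197.9, 206, 204 and 203 TPM in WT, with 279, 300.1, 290.1 and 281 in NOTCH1KO and 203, 198.5, 199.8 and 202 in NOTCH2KO. WT and NOTCH2KO overlapped, and NOTCH1KO lay above both in every library. The NOTCH1KO difference of UFC1 was 0.50 (SE 0.056) and the NOTCH2KO difference -0.013 (limma adjusted p = 0.899), and the knockouts differed by 0.51 (limma adjusted p = 3.89e-04). IVNS1ABP, a kelch-repeat protein, had 92.3 ± 32.1, 178 ± 33.3 and 117 ± 39.6 TPM (SD, n = 4), with 0.99 in NOTCH1KO and 0.34 in NOTCH2KO (limma adjusted p = 0.0754). PSMB4, a proteasome core subunit and one of the 5 members with the highest level, had 942 ± 36.5, 1039 ± 78.6 and 1122 ± 76.9 TPM (SD, n = 4).

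Mitochondrial and metabolic genes were 34 members, with 26 above 0 in NOTCH1KO, 15 higher and 2 lower in all 4 cultures, and a median of 0.34. The NOTCH2KO median was 0.21, and 9 rose (26.5%) and 1 fell. The gene that fell was TFB2M, a transcription factor of mitochondrial DNA, at 64.7, 66.1, 84 and 66.8 TPM in WT, with 94.4, 90.9, 102 and 90 in NOTCH1KO and 49.8, 46.4, 56.2 and 49.4 in NOTCH2KO. The groups did not overlap, and the knockouts lay on opposite sides of WT. TFB2M differed from WT by 0.42 (SE 0.069) in NOTCH1KO and -0.47 in NOTCH2KO (limma adjusted p = 0.00301), and the knockouts differed by 0.89 (limma adjusted p = 8.09e-05). PPOX, an enzyme of haem synthesis, had -0.30 in NOTCH1KO, 0.54 in NOTCH2KO (limma adjusted p = 0.0175) and a difference between knockouts of -0.84 (limma adjusted p = 0.00148). The NOTCH1KO value of PPOX was -0.10 with coverage in place of TPM and -0.20 without WT Fc/DAPT. The NOTCH2KO call for PPOX was lost without WT Fc/DMSO (0.55), WT Jagged1/DMSO (0.44), WT Jagged1/DAPT (0.51), NOTCH2KO Fc/DMSO (0.50) and NOTCH2KO Jagged1/DMSO (0.49), and with the genotype term alone (0.54). UAP1, which makes UDP-N-acetylglucosamine, had 147 ± 20.7, 189 ± 42.4 and 229.8 ± 17.3 TPM (SD, n = 4), with 0.34 in NOTCH1KO and 0.65 in NOTCH2KO (limma adjusted p = 0.00311).

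The largest NOTCH1KO value of that list belonged to UHMK1, a kinase rather than a metabolic enzyme, and its libraries scattered. UHMK1 had 52.1, 8.31, 70.8 and 12.3 TPM in WT, with 89.6, 119.8, 18.4 and 91.7 in NOTCH1KO and 14.8, 14.2, 25.3 and 15.1 in NOTCH2KO. The low values were the DAPT libraries in WT and Jagged1/DMSO in NOTCH1KO. With an SE of 0.77 on a difference of 1.34, the NOTCH1KO value was 0.74 without WT Fc/DAPT, 0.77 without NOTCH1KO Fc/DAPT, 2.03 without WT Jagged1/DMSO and 2.27 without NOTCH1KO Jagged1/DMSO. In NOTCH2KO the UHMK1 difference was -0.56 (limma adjusted p = 0.662), and it turned to 0.13 without WT Jagged1/DMSO. It was -0.26 without WT Fc/DMSO, -1.16 without WT Fc/DAPT, -0.94 without WT Jagged1/DAPT and -0.25 without NOTCH2KO Fc/DMSO.

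Chromatin and nuclear envelope genes were 24 members, with 21 above 0 in NOTCH1KO, 15 higher and 2 lower in all 4 cultures, and a median of 0.33. In NOTCH2KO the median was 0.30, and 5 rose (20.8%) and none fell. KDM5B, a demethylase of histone H3 lysine 4, had 32.3, 23.4, 35.9 and 32.7 TPM in WT, with 61.3, 67.1, 65.5 and 48.3 in NOTCH1KO and 66.8, 57, 58.4 and 80.3 in NOTCH2KO. LBR, the lamin B receptor of the inner nuclear membrane, had 75.8, 88.6, 106 and 117 TPM in WT, with 170.4, 192, 149.6 and 164 in NOTCH1KO and 148, 164, 177 and 179 in NOTCH2KO. For both genes every knockout library lay above every WT library and the knockouts overlapped. The KDM5B differences were 0.94 (SE 0.17) and 1.06 (limma adjusted p = 0.0042 in NOTCH2KO), or 0.23 and 0.50 with coverage in place of TPM. The LBR differences were 0.81 (SE 0.13) and 0.80 (limma adjusted p = 0.00416 in NOTCH2KO). LMNA, which encodes lamins A and C and lies at 156052364 to 156109880, went against the arm in NOTCH1KO. It had 368.4, 359.1, 369.9 and 326 TPM in WT, with 218, 144, 178 and 245 in NOTCH1KO and 446, 456, 399.5 and 338 in NOTCH2KO, so that every NOTCH1KO library was below all others while WT and NOTCH2KO overlapped. Its differences were -0.88 (SE 0.16) in NOTCH1KO, 0.20 in NOTCH2KO (limma adjusted p = 0.447) and -1.08 between the knockouts (limma adjusted p = 0.00179). HDGF, a chromatin-binding growth factor, had 602 ± 40.3, 759 ± 47 and 586 ± 18.7 TPM (SD, n = 4), and the knockouts differed by 0.37 (limma adjusted p = 0.0049).

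RNA processing and translation genes were 26 members, with 24 above 0 in NOTCH1KO, 16 of them higher and none lower in all 4 cultures, and a median of 0.38. The NOTCH2KO median was 0.18, and 7 rose (26.9%) and none fell. Between the knockouts, 7 (26.9%) were higher in NOTCH1KO and none lower, beside 11.9% and 19.8% of all genes tested. SSR2, a subunit of the translocon-associated complex of the endoplasmic reticulum, had 402, 321, 474 and 389 TPM in WT, with 701, 682, 630.3 and 508 in NOTCH1KO and 418, 454, 336 and 312 in NOTCH2KO. NOTCH1KO lay above the other groups in every library, and these overlapped. The SSR2 differences were 0.67 (SE 0.15), -0.064 (limma adjusted p = 0.801 in NOTCH2KO) and 0.73 between the knockouts (limma adjusted p = 0.00626). SRP9, of the signal recognition particle, had 261, 285, 310.2 and 319 TPM in WT, with 412, 464, 409 and 418 in NOTCH1KO and 335, 346, 125 and 117 in NOTCH2KO. The NOTCH2KO libraries of SRP9 split, with both Fc libraries above every WT library and both Jagged1 libraries far below. The SRP9 difference in NOTCH2KO was -0.53 (limma adjusted p = 0.284), and was -0.35 without WT Jagged1/DAPT and -0.80, -0.29 and -0.25 without NOTCH2KO Fc/DMSO, Jagged1/DMSO and Jagged1/DAPT. Its call between the knockouts, 1.06 (limma adjusted p = 0.0326), was lost without NOTCH1KO Fc/DMSO (1.17), NOTCH1KO Fc/DAPT (1.14), NOTCH1KO Jagged1/DMSO (0.98), NOTCH1KO Jagged1/DAPT (0.96), NOTCH2KO Jagged1/DMSO (0.83) and NOTCH2KO Jagged1/DAPT (0.78), and with no filter on low values (1.06) and library weights (0.97).

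Secretory pathway and lysosome genes were 27 members, with 21 above 0 in NOTCH1KO, 14 higher and 4 lower in all 4 cultures, and a median of 0.22. The NOTCH2KO median was 0.22, and 8 rose (29.6%) and none fell. Between the knockouts 3 (11.1%) were higher and 7 (25.9%) lower in NOTCH1KO. ERO1LB, an oxidase for protein folding in the endoplasmic reticulum, had 1.75, 1.55, 4.51 and 2.21 TPM in WT, with 5.42, 4.27, 8.77 and 4.27 in NOTCH1KO and 6.63, 6.46, 9.09 and 8.55 in NOTCH2KO. Its differences were 0.95 (SE 0.15) and 1.37 (limma adjusted p = 0.00101 in NOTCH2KO), and it was higher than WT in all 4 cultures of both knockouts. SEC22B, a vesicle SNARE protein and the first member by position, had 208, 206, 239.6 and 228 TPM in WT, with 204, 204, 194 and 190.1 in NOTCH1KO and 283, 263, 314 and 277 in NOTCH2KO. It rose by 0.37 in NOTCH2KO (limma adjusted p = 0.011), stood at -0.15 in NOTCH1KO and differed between the knockouts by -0.52 (limma adjusted p = 0.00131). CTSS, the lysosomal protease cathepsin S, had 47.2 ± 8.89, 32.3 ± 3.13 and 54.3 ± 6.4 TPM (SD, n = 4) and differed between the knockouts by -0.73 (limma adjusted p = 0.00315).

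Cell surface, adhesion and cytoskeleton genes were 22 members, with 15 above 0 in NOTCH1KO, 8 higher and 5 lower in all 4 cultures, and a median of 0.18. The NOTCH2KO median was 0.44, the highest of the 12 lists, and 9 rose (40.9%) and none fell. Between the knockouts 1 (4.55%) was higher and 7 (31.8%) lower in NOTCH1KO. PLXNA2, a receptor for semaphorins, had 13.4, 12.1, 9.03 and 14.3 TPM in WT, with 5.18, 5.96, 5.33 and 4.76 in NOTCH1KO and 17.1, 15.7, 18.1 and 17.9 in NOTCH2KO. CADM3, a cell adhesion molecule of the nervous system, had 3.15, 3.83, 7.42 and 5.34 TPM in WT, with 1.82, 1.36, 1.92 and 1.97 in NOTCH1KO and 9.36, 6.47, 10.3 and 11.8 in NOTCH2KO. Both genes were below every WT library in NOTCH1KO, and in NOTCH2KO PLXNA2 was above every WT library while CADM3 overlapped WT in 1 library. The PLXNA2 differences were -1.05 (SE 0.14), 0.48 (limma adjusted p = 0.0451 in NOTCH2KO) and -1.53 between the knockouts (limma adjusted p = 1.76e-04). The NOTCH2KO call for PLXNA2 was lost without WT Fc/DMSO (0.53), WT Fc/DAPT (0.48), WT Jagged1/DMSO (0.34), NOTCH1KO Fc/DMSO (0.48), NOTCH1KO Jagged1/DMSO (0.48), NOTCH2KO Fc/DMSO (0.50), NOTCH2KO Fc/DAPT (0.54), NOTCH2KO Jagged1/DMSO (0.39) and NOTCH2KO Jagged1/DAPT (0.47), and with FPKM (0.40), centred libraries (0.39) and no filter on low values (0.48). The CADM3 differences were -1.05 (SE 0.17), 0.85 (limma adjusted p = 0.0104 in NOTCH2KO) and -1.90 (limma adjusted p = 1.50e-04). CAPN2, a calcium-dependent protease, had 346 ± 46.7, 397 ± 47.1 and 473 ± 9.81 TPM (SD, n = 4) and rose in NOTCH2KO by 0.46 (limma adjusted p = 0.0126).

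S100 genes and the epidermal differentiation complex, a cluster of genes for cornified skin around the calcium-binding S100 genes, had 8 members out of 27 listed. This was the only one of the 12 lists with a NOTCH1KO median below 0, at -0.17, with 3 of 8 above 0, none higher in all 4 cultures and 1 lower in all 4. In NOTCH2KO the median was 0.21, 3 rose (37.5%) and none fell, and 4 (50%) were lower in NOTCH1KO than in NOTCH2KO. S100A11 had 1392, 1482, 1325 and 1475 TPM in WT, with 1281, 1158, 1217 and 1292 in NOTCH1KO and 1730, 1628, 1685 and 1748 in NOTCH2KO. Its differences were -0.20 (SE 0.056), 0.26 (limma adjusted p = 0.0145 in NOTCH2KO) and -0.46 between the knockouts (limma adjusted p = 6.80e-04). The NOTCH2KO call for S100A11 was lost without WT Fc/DMSO (0.24), WT Jagged1/DMSO (0.23) and NOTCH2KO Fc/DMSO (0.26), and with FPKM (0.21), centred libraries (0.17) and no filter on low values (0.26). S100A6, the member with the highest mean level, had 1574 ± 316, 1559 ± 140.3 and 1963 ± 62.3 TPM (SD, n = 4), with 0.0033 in NOTCH1KO and 0.34 in NOTCH2KO (limma adjusted p = 0.0654). S100A2 had the largest NOTCH1KO value of the list, 0.83, and -0.012 in NOTCH2KO (limma adjusted p = 0.987). Its levels were 157 ± 81.7, 263 ± 59.8 and 158 ± 77.8 TPM (SD, n = 4). SPRR2D, a precursor of the cornified envelope, had 4.38, 3.38, 3.08 and 4.09 TPM in WT, with 2.65, 3.07, 3.77 and 1.98 in NOTCH1KO and 10.2, 11.7, 13.2 and 13.7 in NOTCH2KO. It rose by 1.48 in NOTCH2KO (limma adjusted p = 0.00129) and stood at -0.30 in NOTCH1KO, a value that was -0.19 without WT Fc/DMSO and -0.14 without NOTCH1KO Jagged1/DAPT. The summed epithelial markers were 759 to 1029 TPM in WT, 586 to 757 in NOTCH1KO and 684 to 808 in NOTCH2KO. That sum was mostly KRT18, with a mean of 670 TPM beside 124 for KRT8. The part of these markers in the values of this list was not tested.

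**Figure D4:**
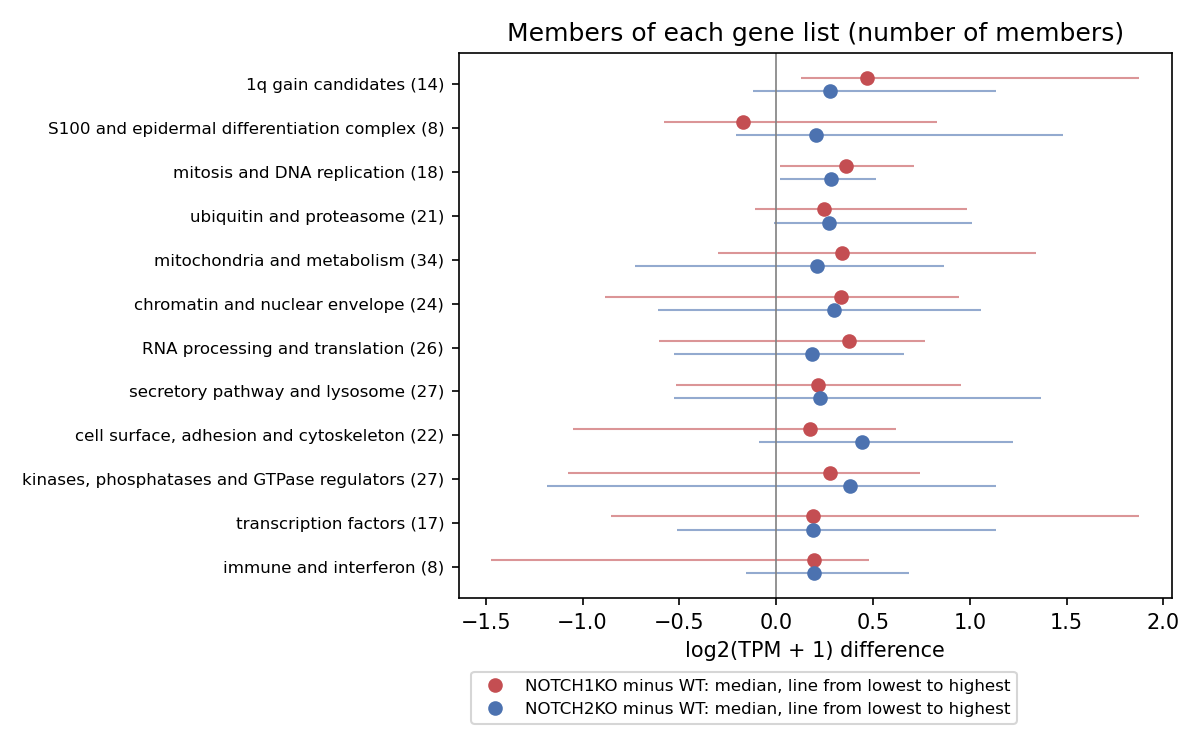
Median (point) and range from lowest to highest (line) of the log2(TPM + 1) difference from WT over the members of each of 12 gene lists, for NOTCH1KO and NOTCH2KO, with the number of members in brackets. All medians lie above 0 except that of the S100 and epidermal differentiation list in NOTCH1KO (-0.17); the lists overlap in some genes.

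Kinases, phosphatases and GTPase regulators were 27 members, with 20 above 0 in NOTCH1KO, 8 higher and 3 lower in all 4 cultures, and a median of 0.28. For NOTCH2KO it was 0.38, and 13 rose (48.1%) and 1 fell. Between the knockouts 1 (3.7%) was higher and 6 (22.2%) lower in NOTCH1KO. RGS4, which speeds the switching off of G-protein signals, was the 1 that fell, at 24.2, 10.6, 41.1 and 11.9 TPM in WT, with 7.25, 8.16, 16.6 and 5.03 in NOTCH1KO and 9.13, 7.78, 9.18 and 5.57 in NOTCH2KO. The highest RGS4 values in WT and in NOTCH1KO were both in Jagged1/DMSO, and all 4 NOTCH2KO libraries were below the lowest WT library. Its differences were -1.08 (SE 0.25) and -1.18 (limma adjusted p = 0.0142 in NOTCH2KO), and the call was lost without WT Fc/DMSO (-1.07), and with the genotype term alone (-1.18). PI4KB, a lipid kinase of the Golgi, had 54.6 ± 5.88, 75.3 ± 8.08 and 80.8 ± 9.34 TPM (SD, n = 4), with 0.46 in NOTCH1KO, or 0.21 with coverage in place of TPM. PI4KB rose in NOTCH2KO by 0.56 (limma adjusted p = 0.00739), a call that coverage in place of TPM removed (0.49). ARHGEF2, an exchange factor for RhoA, had 131 ± 20.6, 83.2 ± 19.9 and 119 ± 20.1 TPM (SD, n = 4) and differed between the knockouts by -0.53 (limma adjusted p = 0.00802), a call lost with the genotype term alone (-0.53).

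Transcription factors were 17 members, with 11 above 0 in NOTCH1KO, 6 higher and 2 lower in all 4 cultures, and a median of 0.19. The NOTCH2KO median was 0.19, and 3 rose (17.6%) and none fell. ZBTB18, a zinc-finger repressor and one of those that rose, had 0.50 (SE 0.11) in NOTCH1KO and 0.69 in NOTCH2KO (limma adjusted p = 0.00487). It is given outside the naming rules below, so its values under the alternatives were not checked. ELF3, an epithelial ETS factor whose promoter held the RBPJ core, had 16, 26.1, 13.9 and 41.9 TPM in WT, with 10.1, 10, 13.2 and 14.8 in NOTCH1KO and 9.75, 12.5, 15.6 and 28.4 in NOTCH2KO. The groups overlapped, with differences of -0.85 (SE 0.23) and -0.51 (limma adjusted p = 0.156 in NOTCH2KO), the latter -0.86 with coverage in place of TPM. SOX13, outside that list, is a SOX-family transcription factor and had 15, 13.6, 13 and 19 TPM in WT, with 6.43, 6, 5.44 and 7.5 in NOTCH1KO and 13.1, 12.5, 16.2 and 13.9 in NOTCH2KO. Every NOTCH1KO library of SOX13 lay below every other library, with -1.13 (SE 0.12) against WT and -1.02 against NOTCH2KO (limma adjusted p = 6.70e-04), or -0.61 and -0.62 with coverage in place of TPM.

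Immune and interferon genes were 8 members, with 5 above 0 in NOTCH1KO, 1 higher and 2 lower in all 4 cultures, and a median of 0.20. In NOTCH2KO the median was 0.19, and 2 rose (25%) and none fell. AIM2, a sensor of DNA in the cytosol, had 20.2, 24.7, 29.5 and 28.1 TPM in WT, with 6.6, 9.99, 6.79 and 11.6 in NOTCH1KO and 18.3, 17.1, 26.4 and 31.9 in NOTCH2KO. All NOTCH1KO values were below all others, and WT and NOTCH2KO overlapped. Its differences were -1.47 (SE 0.17), -0.16 (limma adjusted p = 0.569 in NOTCH2KO) and -1.32 between the knockouts (limma adjusted p = 8.70e-04). CD55, an inhibitor of complement, had 69.2 ± 1.97, 45.5 ± 2.9 and 68.6 ± 14.1 TPM (SD, n = 4) and differed between the knockouts by -0.56 (limma adjusted p = 0.00702). NLRP3 had the largest NOTCH1KO value of the list, 0.48, or 0.31 without NOTCH1KO Fc/DAPT. In NOTCH2KO it had 0.69 (limma adjusted p = 0.0243), a call lost with centred libraries (0.60) and without most single WT or NOTCH2KO libraries.

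Outside the lists, genes with large NOTCH1KO values included SERTAD4, TRIM58 and VASH2. SERTAD4 (ENSG00000082497, 210406144 to 210419976), a SERTA-domain protein, had 13, 11.3, 7.43 and 13.3 TPM in WT, with 31.3, 33.4, 25.4 and 27.5 in NOTCH1KO and 23.6, 20.6, 25.8 and 24.2 in NOTCH2KO. TRIM58 (ENSG00000162722, 248020501 to 248041507), a ubiquitin ligase known from red cell maturation, had 14.6, 23.1, 10.3 and 18.3 TPM in WT, with 53.2, 65.5, 34.2 and 54 in NOTCH1KO and 22, 28.4, 27.2 and 27.5 in NOTCH2KO. NOTCH1KO lay above WT in every library of both genes, and NOTCH2KO did so for SERTAD4 and overlapped WT for TRIM58. The SERTAD4 differences were 1.33 (SE 0.16) and 1.03 (limma adjusted p = 0.00395 in NOTCH2KO). The TRIM58 differences were 1.60 (SE 0.17), 0.68 (limma adjusted p = 0.0235 in NOTCH2KO) and 0.92 between the knockouts (limma adjusted p = 0.00413). The NOTCH2KO call for TRIM58 was lost without WT Fc/DMSO (0.67), WT Jagged1/DMSO (0.57), WT Jagged1/DAPT (0.72) and NOTCH2KO Jagged1/DAPT (0.71), and with the genotype term alone (0.68). SERTAD4-AS1 had 1.16 and HNRNPU-AS1 1.17 in NOTCH1KO, and their reads cannot be told apart from those of SERTAD4 and HNRNPU because the strand setting of the counting was not given. OR2W3 overlaps TRIM58, and their reads may likewise be shared. VASH2 had 1.39 (SE 0.13) in NOTCH1KO and 0.37 in NOTCH2KO (limma adjusted p = 0.0827), and TUFT1 had 1.07 and 0.58 (limma adjusted p = 0.053 in NOTCH2KO).

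Against the arm in NOTCH1KO, KIAA0040 had the lowest value of all named members. It had 8.21, 10.8, 9.54 and 7.69 TPM in WT, with 0.632, 0.994, 0.691 and 0.711 in NOTCH1KO and 14.7, 9.17, 15.5 and 11.9 in NOTCH2KO. Every NOTCH1KO library was under 1 TPM and every other library above 7. The differences were -2.51 (SE 0.17) in NOTCH1KO, 0.44 in NOTCH2KO (limma adjusted p = 0.114) and -2.96 between the knockouts (limma adjusted p = 2.67e-05), and on this scale the size of a change down to such low levels is understated. G0S2, an inhibitor of fat breakdown, had 7.5 ± 3.09, 2.52 ± 0.786 and 5.14 ± 0.473 TPM (SD, n = 4), with -1.24 in NOTCH1KO and -0.41 in NOTCH2KO (limma adjusted p = 0.213), or -0.22 without WT Jagged1/DMSO.

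**Figure D5:**
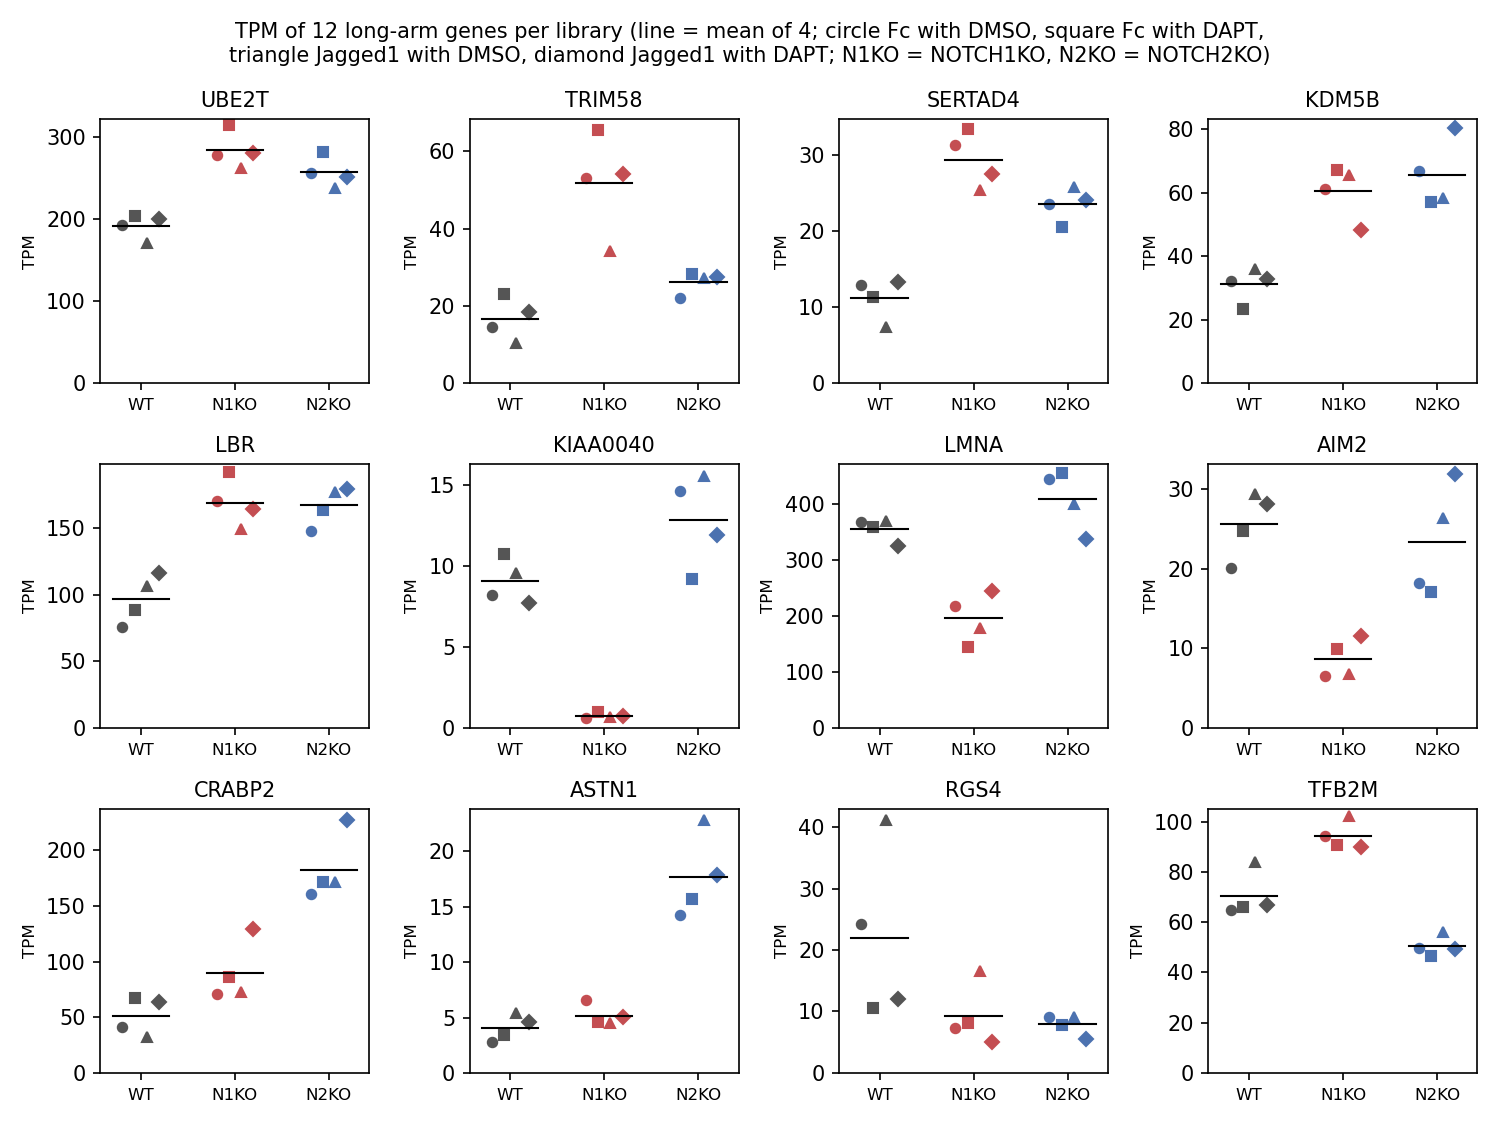
TPM of 12 members in each of the 12 libraries, with a panel per gene, a symbol per culture and a line at the mean of 4 libraries; each TPM axis starts at 0 and has its own range. UBE2T, SERTAD4, KDM5B and LBR lie above WT in all 8 knockout libraries, KIAA0040, LMNA and AIM2 are low in NOTCH1KO alone, CRABP2 and ASTN1 are highest in NOTCH2KO, and TFB2M lies above WT in NOTCH1KO and below it in NOTCH2KO.

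Among called members, with pseudogenes, clone names and small RNAs left out, the largest rises in NOTCH2KO were those of ASTN1 and CRABP2. ASTN1, a protein of neuron migration along glia, had 2.79, 3.41, 5.44 and 4.59 TPM in WT, with 6.59, 4.56, 4.5 and 5.08 in NOTCH1KO and 14.2, 15.7, 22.8 and 17.9 in NOTCH2KO. CRABP2, which carries retinoic acid to its nuclear receptors, had 40.9, 67.4, 32.4 and 63.7 TPM in WT, with 71.2, 85.9, 72.8 and 129.5 in NOTCH1KO and 160.5, 171, 172 and 227 in NOTCH2KO. NOTCH2KO lay above all other libraries for both genes, and its CRABP2 mean was 3.58 times that of WT. The ASTN1 differences were 1.89 in NOTCH2KO (limma adjusted p = 5.18e-04), 0.31 (SE 0.19) in NOTCH1KO and -1.59 between the knockouts (limma adjusted p = 5.85e-04), the last being -1.03 with coverage in place of TPM. The NOTCH1KO value of ASTN1 was 0.09 without NOTCH1KO Fc/DMSO and 0.17 without WT Fc/DMSO, and was 0.48 without NOTCH1KO Jagged1/DMSO. The CRABP2 differences were 1.87 in NOTCH2KO (limma adjusted p = 2.08e-04), 0.82 (SE 0.15) in NOTCH1KO and -1.04 (limma adjusted p = 0.00153) between them. C1orf198 had 13.8, 15.7, 14.3 and 18.7 TPM in WT, with 24.2, 25.8, 20.9 and 29.3 in NOTCH1KO and 39.8, 36.5, 40.2 and 40.9 in NOTCH2KO. Its groups did not overlap, with 1.29 in NOTCH2KO (limma adjusted p = 1.58e-04) and 0.65 (SE 0.10) in NOTCH1KO. NFASC, an adhesion molecule of axons, had 1.24 in NOTCH2KO (limma adjusted p = 0.016), or 0.47 with coverage in place of TPM, and its call was lost without WT Jagged1/DMSO (1.19), NOTCH2KO Jagged1/DMSO (1.11) and NOTCH2KO Jagged1/DAPT (1.21). DNM3OS, a long non-coding RNA, was the reverse case, with 0.68 in NOTCH1KO, -0.20 in NOTCH2KO and 0.88 between the knockouts (limma adjusted p = 3.13e-04).

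Pseudogenes made up most of the members that fell in NOTCH2KO. Of the 13 that fell, 11 were pseudogenes, named here after their values were seen: KRT18P28, MORF4L1P1, BANF1P4, BTF3P9, RPL4P3, RPL34P6, RPL4P2, PFN1P1, MRPS10P1, EI24P2 and RPL35P1. The other two were RGS4 and TFB2M, and with protein-coding members alone the count was 2. Reads of a pseudogene and its parent gene can be shared, so these values are uncertain. MORF4L1P1 had a NOTCH2KO difference of -0.92 and its parent MORF4L1 on chromosome 15 had -0.94, and RPL35P1 had a NOTCH1KO difference of -1.27 and RPL35 on chromosome 9 had -1.17. Over the 34 pseudogenes with a tested parent off chromosome 1, the differences of pseudogene and parent had a correlation of r = 0.43 in NOTCH1KO and 0.71 in NOTCH2KO, across genes that share libraries and possibly reads.

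The cultures, by contrast, did not move the members past the test. With Jagged1 against Fc in DMSO, limma called 0 members in either direction, beside 0.0114% and 0% of all genes tested. DAPT against DMSO on Jagged1 gave 0 calls, beside 0% higher and 0.0284% lower, and on Fc 0 calls, beside 0.017% in each direction. Jagged1 against Fc in DAPT gave 0 calls, beside 0.00568% and 0%. Without NOTCH2KO Jagged1/DMSO, DAPT on Jagged1 gave 2 higher calls (ILDR2 and RPL21P28) and 3 lower calls (RGS4, ATP1B1 and NMNAT2). At an unadjusted p under 0.05 the same fits held 54, 67, 33 and 32 members (10.9, 13.5, 6.64 and 6.44%), beside 10.8, 11, 6.14 and 4.74% of all genes tested. The members' medians in these comparisons were 0.058, -0.016, 0.016 and 0.025. ILDR2, chosen after the values were seen, had the smallest p of the members in these comparisons. It had 5.80, 6.73 and 12.7 TPM with DAPT and 2.60, 2.52 and 7.30 with DMSO on Jagged1, a difference of 0.92 (limma adjusted p = 0.0695). The direction was the same in all 3 genotypes.

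MIR4426, named here after its values were seen, had the largest log2 difference of all members in both knockouts. The row carries the name of a microRNA and the identifier ENSG00000231767, which the gene annotation types as protein coding. It had 362.4, 285, 2.69 and 3.26 TPM in WT, with 317, 360.5, 329 and 316 in NOTCH1KO and 264, 266, 268 and 261 in NOTCH2KO. Only the WT libraries on Jagged1 were low, and the other 10 libraries lay between 260.9 and 362.4. Its differences were 3.21 (SE 1.25) in NOTCH1KO and 2.89 in NOTCH2KO (limma adjusted p = 0.146).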

How the data were processed

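RNA of 12 DAOY cultures was measured as poly-A selected, stranded TruSeq libraries read as single 51-base reads, with bcl2fastq 2.17, CASAVA and GRCh37 named in the submitters' processing notes. The sources used here do not give the aligner, quantifier, annotation release or strand setting. Deposited TPM were scaled by the authors for length and sum to 1000000 in each library. FPKM and the coverage signal, both deposited by the authors and the latter unscaled between libraries, served as alternatives only. Identifiers listed more than once were summed. Coverage over FPKM gave the depth, 18.3 to 22.4 M reads, and with no counts in the tables no counting intervals are given.

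The members, gene lists and tests were chosen with earlier results of these data known. Values were taken as log2(TPM + 1), a scale that understates changes of low genes, and fitted with limma 3.58.1 in R 4.3.3 with a mean-variance trend over the 17621 genes that averaged 1 TPM or more. Terms for genotype and culture were additive, which left 6 residual degrees of freedom, and p-values were adjusted by Benjamini and Hochberg over all genes, with calls at an adjusted p under 0.05. As each combination had 1 library, the error is the departure from additivity among these libraries, and nothing said that libraries were independent cultures, so p-values measure only the spread between them. GENCODE v29 gave gene types only. The main comparisons numbered 6. The NOTCH1KO against NOTCH2KO comparison and the counts over protein-coding members alone were added after the values had been seen.

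Named members were the 8 largest rises and 8 largest falls in NOTCH1KO among those with the same sign in 4 cultures, up to 4 members of the highest TPM and the extremes of each list, up to 6 called members per direction of the other comparisons, the 5 with the highest TPM and those next to the thresholds. Pseudogenes, clone names and small RNAs were not eligible as rises, falls, calls or highest levels, and the text gives full values for some of these members. Some members are not reported here. Alternatives were a pseudocount of 0.1, FPKM or coverage in place of TPM, libraries centred on the median gene off chromosome 1, other filters on TPM, all names kept, the genotype term alone, library weights and each library left out in turn. The procedure was tested on simulated data with 200 of 17621 genes changed. For NOTCH2KO against WT it recovered 11.5, 77.5 and 93% of changes of 0.5, 1 and 2 on the log2 scale, with 1, 15 and 11 false calls. For DAPT on Jagged1 it recovered 0, 63 and 92%, with 0, 8 and 11 false calls. In the real NOTCH2KO comparison far more genes differed, with 12% of genes tested called higher and 7.35% lower. The adjusted p depends on that share, so the simulated recovery does not give the recovery in the real comparison.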

Additional observations from a re-analysis of the deposited data

Results flagged for a closer look

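Among the named members, 252 groups of 4 libraries were checked for a library far from the other three, and 21 passed Dixon's critical value, where chance gives about 1 in 20. Those described above include CRABP2 in Jagged1/DAPT in NOTCH2KO, at 227.4 TPM above the others, TFB2M in Jagged1/DMSO in WT, at 83.95 TPM above the others, and UHMK1 in Jagged1/DMSO in NOTCH2KO, at 25.3 TPM above the others.

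For 8 named members, all 4 cultures of one knockout lay on one side of WT and all 4 of the other knockout on the opposite side, and limma called the difference between the knockouts. Members whose fitted values were opposite but whose cultures were mixed are not among the 8. For those 8, the NOTCH1KO minus NOTCH2KO differences on the log2(TPM + 1) scale were -0.5177 for SEC22B, -0.4577 for S100A11, -1.079 for LMNA, -1.90 for CADM3, -0.84 for PPOX, 0.8771 for DNM3OS, -1.529 for PLXNA2 and 0.8918 for TFB2M.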

How the results depend on the processing

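The members' median in NOTCH1KO against WT kept its sign under every alternative run, and so did the median in NOTCH2KO. With libraries left out in turn the NOTCH1KO median lay between 0.22 and 0.29 and the NOTCH2KO median between 0.26 and 0.29. FPKM gave a NOTCH2KO median of 0.21 and centring 0.18, while for NOTCH1KO FPKM gave 0.21 and centring 0.31. The median between the knockouts, -0.034, turned to 0.1158 with centring and to 0.01256 without NOTCH1KO Jagged1/DMSO, with a range of -0.051 to 0.01256 over the libraries left out. The cause was not tested.

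Counts of calls moved more. In NOTCH1KO, higher calls ranged from 106 to 159 and lower calls from 13 to 23 over the libraries left out. Centring gave 200 higher and 18 lower calls there. In NOTCH2KO, higher calls ranged from 78 to 173 and were 90 with centring, and lower calls ranged from 8 to 17 and were 2 with protein-coding members alone. Between the knockouts, higher calls ranged from 41 to 61 and lower calls from 53 to 81, and centring gave 119 and 47. Fits with a library left out have fewer samples. For DAPT on Jagged1, library weights gave 1 higher call (ILDR2) and coverage 1 lower call (IVNS1ABP), and leaving out NOTCH2KO Jagged1/DMSO gave 2 higher and 3 lower. Of 4980 values of 83 named genes under the alternatives, 4570 kept direction and side of the threshold, 303 lost the call, 82 gained one, 25 without a call changed sign by more than their standard error, and 0 with a call changed sign. A fit without the genotype term gives no genotype value and was not run. The labels carry no replicate numbers to use as a block, and the culture term already matches the libraries of the 3 genotypes. With the genotype term alone, 133 members rose and 13 fell in NOTCH2KO.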
